A study of Mus musculus with 12 samples.

Results

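Gene expression was compared between Tcf3-/- (knockout) and Tcf3+/+ (wild-type) mouse embryonic stem cells that had both received Wnt3a, a secreted Wnt ligand. The comparison uses the 3 knockout and 3 wild-type arrays from Wnt3a medium, 6 of the 12 arrays of the series, and covers each probe set that carries a single gene symbol. Knockout cells with Wnt3a had the genotype Tcf3-/- and were given recombinant Wnt3a at 50 ng/ml for 24 h. Wild-type cells with Wnt3a had the genotype Tcf3+/+ and the same treatment. The other 6 arrays, 3 of knockout and 3 of wild-type cells in control medium, are used below to ask where the knockout effect with ligand differs from that without it. They also entered the limma fit, so the SE and adjusted p-values of the Wnt3a comparison rest on the spread within all groups of the 12 arrays. All groups share a culture on gelatin without feeder cells, in medium with 15% fetal bovine serum and Lif at 1000 U/ml. The labels name neither the cell lines or clones nor the deleted exons, so the genotype cannot be told apart from other differences between the cells compared. They also do not say that replicates came from separate cultures, and p-values therefore measure the spread between these arrays.

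The gene called Tcf3 in the labels is now named Tcf7l1 and encodes an HMG-box DNA-binding protein of the Tcf/Lef family. Without Wnt signal Tcf/Lef proteins sit on Wnt target genes with Groucho (Tle) corepressors, and stabilised beta-catenin turns these genes on when a ligand is bound by Frizzled and Lrp receptors. In mouse embryonic stem cells Tcf7l1 is best known as a repressor that binds with Oct4, Sox2 and Nanog near pluripotency genes, and Wnt3a or loss of Tcf7l1 favours self-renewal. Embryonic stem cells in serum are a mixture, with cells in a naive state beside cells nearer to differentiation. In such bulk RNA, fewer cells of a type and less RNA per cell cannot be told apart.

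Values below are the deposited RMA intensities, and changes are log2 differences of group means, knockout minus wild type, ± the fitted standard error (SE) from limma, with n = 3 arrays per group. Of 18193 named genes, 13811 passed the filter on low values and were tested. A gene is called at a limma adjusted p below 0.05. The level that defined the filter, an intensity of 47.2, was used as a floor. A fold for a gene with 1 group's mean under this floor was taken against the floor and is given as a lower bound (at least N-fold). Arrays correlated across probe sets at 0.995 to 0.997 within the knockout and within the wild-type group with Wnt3a, and at 0.986 to 0.992 between them. Median intensities were 68.3 to 70.1 on knockout arrays and 68.5 to 70.1 on wild-type arrays. Of the array controls, 5 measures did not overlap between the genotypes, all given on the log2 scale. The 3'-to-5' difference of actin was 0.36 to 0.41 on knockout arrays and 0.24 to 0.27 on wild-type arrays, and that of Tfrc was 1.14 to 1.26 on knockout and 1.08 to 1.14 on wild-type arrays. The 18S ribosomal RNA probe sets averaged 9.98 ± 0.41 on knockout arrays and 10.7 ± 0.23 on wild-type arrays (SD, n = 3 each). The spiked transcript dap was lower on knockout arrays (11.4 ± 0.06, against 11.6 ± 0.03 on wild-type arrays) and bioC higher (10.6 ± 0.12, against 10.3 ± 0.05). The part of these measures in the results was not tested.

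The label was first checked on the targeted gene. Tcf7l1 had intensities of 582, 598 and 473 on the 3 knockout arrays, against 1449.7, 1361 and 1186 on the 3 wild-type arrays. The groups did not overlap (over all genes, the knockout arrays lay wholly below the wild-type arrays for 22.3% and wholly above them for 20.3%), and the gene fell by 1.28 ± 0.10 on the log2 scale, 2.42-fold (limma adjusted p 7.75e-06), with both of its probe sets lower. Its knockout intensities stayed above the floor, and the labels do not say which part of the gene is missing, so the probe sets need not lie in it. The 3 tested neighbours on each side of Tcf7l1 on chromosome 6 differed by between -0.24 and 0.30, with 0.22 ± 0.07 for Elmod3, 0.30 ± 0.08 for Retsat, 0.25 ± 0.06 for Tgoln1, -0.24 ± 0.07 for Kcmf1, 0.04 ± 0.05 for Tmsb10 and 0.05 ± 0.08 for Dnah6. Elmod3, Retsat and Tgoln1 were called higher and Kcmf1 lower (13.2% and 14.7% of all genes were). With single arrays left out the calls were lost for Elmod3 (limma adjusted p up to 0.16), Kcmf1 (up to 0.105) and Retsat (0.0539). The other probe set of Elmod3 was not called (-0.07 ± 0.10). All 6 embryonic stem cell markers (Pou5f1, Sox2, Nanog, Zfp42, Sall4 and Utf1) lay above the floor on all Wnt3a arrays of both genotypes.

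Expression differed broadly between knockout and wild-type cells in the presence of Wnt3a, and the falls were deeper than the rises. Of the genes tested, 1828 were higher in knockout cells (13.2%) and 2035 were lower (14.7%), together 28.0%. At least 2-fold changes were less even, with 123 genes higher (0.891%) and 300 lower (2.17%), and at 4-fold there were 13 and 65. Changes of 10-fold or more were found for 2 higher and 15 lower genes. The number at least 2-fold lower was 246 without wild-type Wnt3a array 1 and 347 without array 3. For many genes below, the wild-type Wnt3a values climb (Tbx3, Esrrb) or drop (Krt19, Pou3f1) in order from array 1 to array 3. Others, such as Acta2, show no such order. Genes that share this order are not separate evidence. Counted by probe set, 2799 of 24503 were higher (11.4%) and 3487 lower (14.2%). Several called probe sets were available for 1214 genes, and they disagreed in direction for 52 of these. The split is sensitive to scaling: the higher genes made up 47.3% of calls here and 56.7% (2359 higher, 1802 lower) after a repeated quantile normalization, where the median change of all genes was 0.03, against 0.006 here. The shares of 13.2% higher and 14.7% lower are the background against which the counts of list members below are given. Lists and members were chosen with earlier results of these data known. Their counts therefore describe the lists and are not a test of them against the background.

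**Figure D1:**
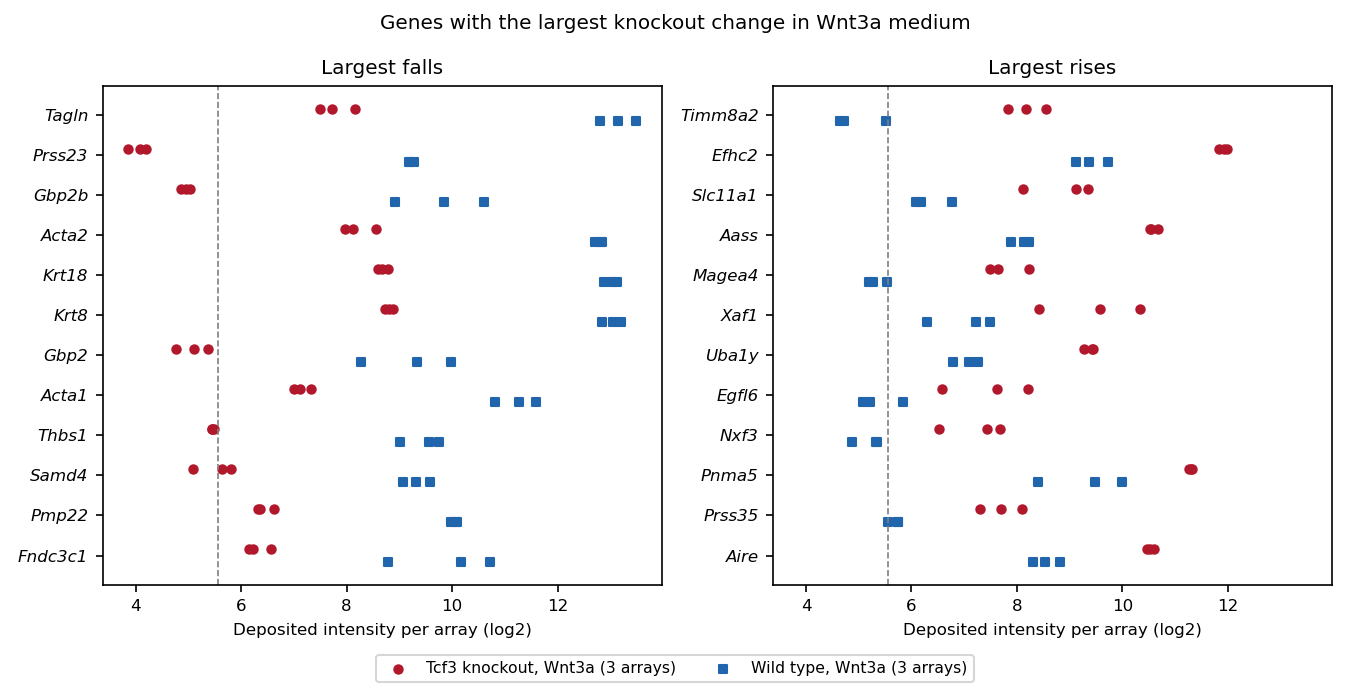
Log2 intensity of the 12 genes with the largest falls (left panel) and the 12 with the largest rises (right panel) in Wnt3a medium, 1 row per gene, with the 3 knockout arrays as circles above the 3 wild-type arrays as squares. The dashed line is the floor (5.56). In each row the knockout and wild-type points do not overlap, and for 5 falls (Prss23, Gbp2b, Gbp2, Thbs1, Samd4) the knockout mean lies below the floor.

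The 12 largest falls included 3 genes of the contractile cytoskeleton (Tagln, Acta2 and Acta1), 2 keratins of simple epithelia (Krt18 and Krt8) and 7 genes of other kinds. Tagln, the actin-binding protein transgelin (SM22) of smooth muscle, had intensities of 288, 181 and 212 on knockout arrays and 11531, 9029.9 and 7145 on wild-type arrays. These ranges are far apart, and Tagln fell by 5.35 ± 0.22, 40.7-fold (limma adjusted p 8.46e-08). Acta2, smooth muscle alpha-actin, had 377, 251 and 279 on knockout and 7229.9, 7359 and 6697 on wild-type arrays and fell 23.8-fold. Krt18 and Krt8, the keratin pair of simple epithelia, fell 20.1-fold and 18.6-fold. For Krt8 the knockout arrays read 426, 474 and 449 and the wild-type arrays 9382, 8485 and 7352, and each of its 3 probe sets was lower. Also among the 12 were the secreted protease Prss23 (at least 12.6-fold lower), the skeletal alpha-actin Acta1 (16.9-fold), the matrix protein Thbs1 (at least 14.7-fold), the RNA-binding protein Samd4 (at least 13.6-fold), the myelin and junction protein Pmp22 (12.2-fold) and Fndc3c1 (a change of -3.58 ± 0.38). The remaining pair, Gbp2b (at least 18.8-fold) and Gbp2, are interferon-inducible GTPases described below.

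Large rises were fewer and were found in genes of other kinds, with RIKEN and predicted names passed over in the 12 named on each side. The 2 genes that were at least 10-fold higher carry such names, are both X-linked and are given here after their values were seen: 1700013H16Rik was at least 16.2-fold and Gm364 12.6-fold higher in knockout cells. Timm8a2, a mitochondrial import factor related to Timm8a1, had 227, 289.6 and 377 on knockout and 25.0, 26.5 and 45.8 on wild-type arrays, which put it at least 6.18-fold higher. Slc11a1, a divalent metal transporter of macrophages, read 279, 558 and 649.6 on knockout arrays, against 72.6, 68.0 and 109 on wild-type arrays, and Aass, an enzyme of lysine breakdown, read 1637, 1499 and 1474 against 300.4, 237 and 279.6. Both rose without overlap, by 2.52 ± 0.27 and 2.50 ± 0.12 on the log2 scale. Efhc2, an X-linked gene for a protein of motile cilia, rose 5.73-fold, to 4073, 3896 and 3641 on knockout arrays against 555, 656 and 844 on wild-type arrays. Magea4 (a cancer-testis antigen, at least 4.67-fold), the secreted protein gene Egfl6 (at least 3.77-fold), the RNA export factor gene Nxf3 (at least 3.15-fold) and Pnma5 (4.04-fold) are X-linked too, so that 5 of these 12 named rises lie on this chromosome. The others were Xaf1 (5.43-fold), the Y-linked Uba1y (5.07-fold), the protease-like Prss35 (4.04-fold) and Aire (3.95-fold), which drives expression of tissue antigens in the thymus. Of the 446 tested X-linked genes 20.2% were higher and 17.3% lower, against 13.2% and 14.7% of all genes.

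The actin and smooth muscle genes fell as a group. Of 34 listed genes 33 were tested, and 26 fell (14.7% of all genes did), 15 of them at least 2-fold, and 0 rose by limma (0 at an unadjusted p below 0.05). Their median change was -0.98, against 0.006 over all genes. Calponin (Cnn1), which binds actin and myosin, read 79.3, 50.4 and 50.4 on knockout arrays and 1117, 727 and 425 on wild-type arrays and fell by 3.58 ± 0.31 on the log2 scale. The tropomyosins Tpm1 and Tpm2, which lie along actin filaments, fell 8.20-fold and 4.06-fold, the regulatory myosin light chain Myl9 7.73-fold and cardiac actin Actc1 6.64-fold. All probe sets tested for Tpm1 (3) and Tpm2 (4) were lower. Members that did not pass included Srf (-0.20 ± 0.09) and Mrtfb (-0.13 ± 0.08), the transcription factor of this class and one of its coactivators. These values are from the brightest probe set of each gene, and the other probe set of Srf was lower (-0.74 ± 0.09, limma adjusted p 0.000167). In control medium 32 of the 33 fell (22.3% of all genes did), with a median of -1.43. Zyxin (Zyx), a focal adhesion protein, changed by -0.71 ± 0.15 with Wnt3a and by -2.12 ± 0.15 without it, and its knockout effect differed between the media by 1.41 ± 0.21 (limma adjusted p 0.0067).

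Genes of this class are known to carry the CArG box, the site of serum response factor, near their start sites, so the RefSeq promoter windows (GRCm38.p6, 250 bases before to 50 after the start) were searched for exact CArG boxes on both strands. A box was found in 10 of the 37 windows of the tested actin genes (27.0%), belonging to 9 of 29 genes with a window, against 535 of all 32851 windows (1.63%) and 183 of 14141 windows of tested genes (1.29%). The list was made of genes known for this class, so its share of boxes describes the list and not the falls. Among named genes with a box were Srf, not called in its brightest probe set, and Meg3, which rose. Of the windows of the 12 largest falls, 1 of 20 held a box, and of those of the 12 largest rises 0 of 11. The 3 windows below are shown because they belong to members that fell and hold the box near the start, printed in capitals, at -73, -47 and -161 from the start.
Acta1, chr8:123894726-123895025, minus strand: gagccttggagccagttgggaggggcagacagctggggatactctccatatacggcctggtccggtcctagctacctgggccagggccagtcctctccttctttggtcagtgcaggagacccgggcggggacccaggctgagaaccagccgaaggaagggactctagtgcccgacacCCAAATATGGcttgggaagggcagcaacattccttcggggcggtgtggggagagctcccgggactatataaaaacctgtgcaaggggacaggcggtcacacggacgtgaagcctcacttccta
Actc1, chr2:114052826-114053125, minus strand: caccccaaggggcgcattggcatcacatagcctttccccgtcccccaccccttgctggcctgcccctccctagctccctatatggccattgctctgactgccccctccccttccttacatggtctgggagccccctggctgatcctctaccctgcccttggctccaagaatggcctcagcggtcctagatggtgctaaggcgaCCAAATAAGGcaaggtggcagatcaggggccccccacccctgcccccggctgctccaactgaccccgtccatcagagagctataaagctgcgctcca
Myl9, chr2:156775214-156775513, plus strand: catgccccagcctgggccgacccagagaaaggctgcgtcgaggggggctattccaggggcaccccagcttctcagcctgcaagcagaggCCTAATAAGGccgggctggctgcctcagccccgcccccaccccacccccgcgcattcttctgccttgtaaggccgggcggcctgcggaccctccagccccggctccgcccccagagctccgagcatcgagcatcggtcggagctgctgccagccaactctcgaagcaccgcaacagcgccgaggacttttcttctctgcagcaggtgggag
The windows of Acta2, Cnn1, Tpm1 and Krt8 held no exact CArG box, which says only that these letters are not in these 300 bases.

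Keratin and desmosome genes, which give simple epithelia their filaments and spot junctions, were mostly lower. Of 19 tested members 11 fell (57.9%, against 14.7% of all genes), 8 of them at least 2-fold (2.17% of all genes were), with a median of -0.69. Krt19, another simple-epithelial keratin, read 99.4, 107 and 130.4 on knockout arrays against 1745, 1208 and 733 on wild-type arrays, without overlap. Krt7 fell 6.79-fold, desmoplakin (Dsp), which anchors keratin at desmosomes, 6.31-fold, Perp 3.05-fold and the desmosomal cadherin Dsc2 at least 2.50-fold. Not all members moved: plakoglobin (Jup) differed by -0.05 ± 0.09 and Pkp3 by -0.07 ± 0.09, neither called. Pkp1, chosen after its values were seen, was the single member called higher, and the number of such members was 0 without knockout Wnt3a array 1, 2 or 3, wild-type Wnt3a array 1 or 3, knockout control array 1, wild-type control array 2 or 3 and with no filter and with an intensity trend and with the replicate block.

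Tight junction and epithelial identity genes showed a like pattern, with 20 of 26 tested members lower and 2 higher and a median of -0.72. Cldn6, a claudin of embryonic epithelia, had 211, 276 and 407 on knockout arrays and 2234, 1599 and 1022 on wild-type arrays. It fell 5.36-fold, Cldn7 5.63-fold, and the epithelial splicing factor Esrp1 5.52-fold. Cingulin (Cgn), the protease Prss8, the adaptor subunit Ap1m2 and Marveld2 (tricellulin) fell 2.44-fold, 2.77-fold, 2.42-fold and at least 2.21-fold. The 2 that rose, Spint1 and Elf3, did so by 0.34 and 0.44 and were named after their values were seen. Claudins were not uniform, since Cldn3 (0.27 ± 0.15) and Cldn4 (-0.59 ± 0.24) overlapped between the genotypes.

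Genes of mesenchymal transition did not move in a single direction. Of 11 tested members 5 were lower (3 without wild-type Wnt3a array 1) and 1 higher. N-cadherin (Cdh2) fell 2.40-fold and galectin-1 (Lgals1) 2.29-fold, while Zeb1, a repressor of E-cadherin, rose by 0.62 ± 0.12. Snai1 (-0.35 ± 0.13), vimentin (Vim, 0.13 ± 0.14) and fibronectin (Fn1, 0.12 ± 0.13) were not called.

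Targets of the growth regulator Yap and genes of caveolae, membrane pits that respond to tension, fell in 14 of 21 tested cases and rose in 1, with a median of -0.48. Ccn1, a secreted matricellular protein and a widely used Yap target, read 397, 416 and 416 on knockout arrays and 2281, 1753 and 1563 on wild-type arrays. The 4 probe sets of Ccn1 were all lower and the gene fell 4.49-fold, and its relative Ccn2 fell 2.77-fold. Tissue factor (F3), the receptor kinase Axl, caveolin-1 (Cav1) and the angiomotin Amotl1 fell 4.87-fold, 4.53-fold, 2.66-fold and 2.38-fold. Nt5e (CD73), a surface enzyme that makes adenosine, was the exception and rose 2.40-fold. Among integrins and matrix genes 10 of 25 fell and 1 rose (2 without knockout control array 2 and with no filter, 0 without knockout Wnt3a array 2 or 3 or wild-type Wnt3a array 1 or 2). Those that fell included the integrin subunits Itga3 (2.21-fold), Itgb5 (2.20-fold), Itgb1 (1.64-fold) and Itgav (1.63-fold) and the matrix protease inhibitor Timp3 (a change of -1.59 ± 0.14).

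**Figure D2:**
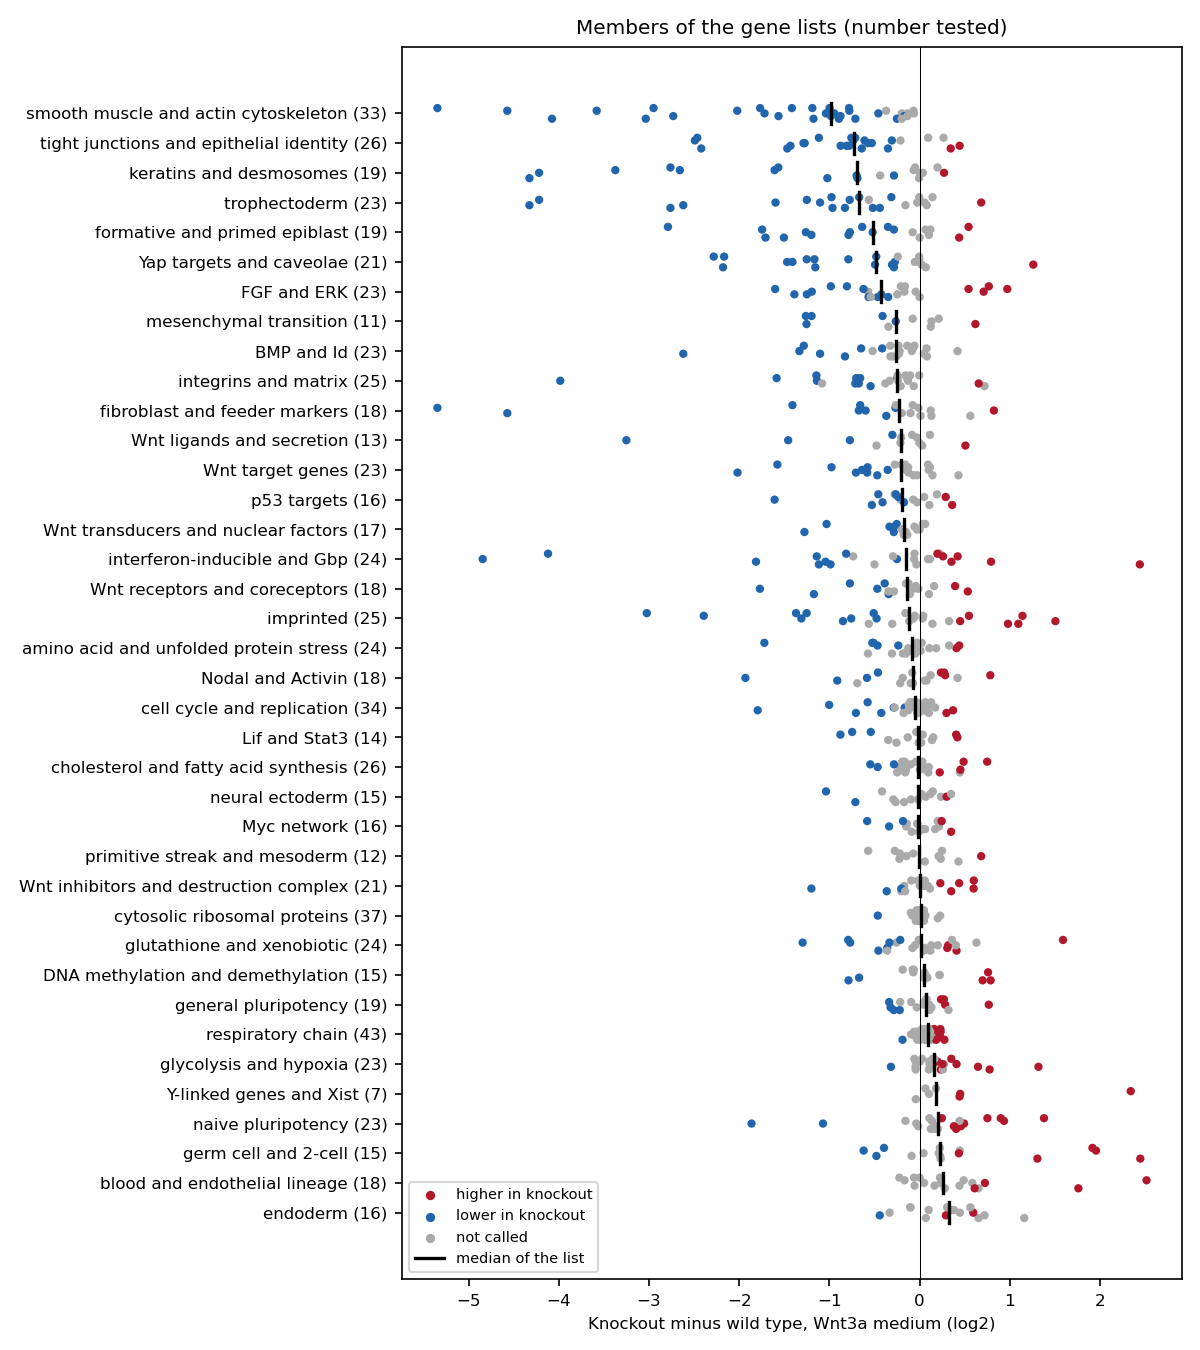
Log2 change (knockout minus wild type, Wnt3a medium) of each tested member of 38 gene lists, 1 row per list, with the median as a vertical bar. The actin list has the lowest median (-0.98), followed by tight junctions (-0.72) and keratins (-0.69), and ribosomal proteins lie tightly around 0.01.

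Actin, keratin and matrix transcripts are also high in cells other than stem cells, so markers of such cells were summed. The 8 feeder fibroblast markers summed to 466 to 490 on knockout arrays and 506 to 523 on wild-type arrays. Col3a1 and Lum were below the floor on all 6 arrays and 4 of the 8 were above it on all. Of the 6 tested, the collagen genes Col1a1 (-0.66, with all knockout arrays below the floor) and Col1a2 (-0.67) were lower in knockout cells, Thy1, a fibroblast surface protein, was higher (0.82), and Dcn, Postn and Pdgfrb were not called. The Col1a2 call was lost (limma adjusted p 0.0522 to 0.0545 without knockout Wnt3a array 2 or wild-type Wnt3a array 2). In the wider list of fibroblast and feeder genes 8 of 18 fell and 1 rose, with a median of -0.23. The number lower was 5 with the stricter filter, with probe sets averaged per gene or without wild-type Wnt3a array 1. It was 4 without wild-type Wnt3a array 2. The number higher was 2 without knockout control array 1 and with the 6 Wnt3a arrays fitted alone. The median ranged from -0.28 to -0.08 over the settings. The 6 trophoblast markers summed to 645 to 792 on knockout arrays and 1025 to 1096 on wild-type arrays, with Elf5 below the floor on all. Of these markers 3 were called lower and 1 higher. Much of the gap lies in Krt7, which read 55.5 to 73.2 on knockout and 389 to 470 on wild-type arrays. Krt7 is among the keratins above, so this sum is not separate from their falls. The 5 neural markers summed to 760 to 998 on knockout and 1028 to 1429.9 on wild-type arrays, with Olig2 below the floor. The 6 extraembryonic endoderm markers summed to 1106 to 1291 on knockout and 822 to 1098 on wild-type arrays. The part of other cell types in the falls was not tested beyond these sums.

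Trophectoderm genes, which include the keratins above, fell in 15 of 23 tested cases, 7 of them at least 2-fold, and rose in 1. Their median was -0.67. Cdx2, the homeobox factor that founds this lineage and a Wnt target in other tissues, had 96.7, 100.4 and 80.7 on knockout arrays against 205, 167 and 174 on wild-type arrays and fell 1.97-fold, in both probe sets. Id2, an inhibitor of helix-loop-helix factors, had 179, 287 and 332 on knockout arrays and 1989, 1528 and 1309 on wild-type arrays and fell 6.15-fold. The X-linked homeobox gene Rhox6, the receptor Fgfr2 and the ligand Bmp8b fell 3.03-fold, 2.38-fold and 2.15-fold. Eomes, in contrast, was higher in knockout cells (0.68 ± 0.21, limma adjusted p 0.032), with overlapping arrays, and this call was lost (limma adjusted p 0.0553 to 0.121 without knockout Wnt3a array 2 or 3 or wild-type Wnt3a array 1 or 2). Tfap2a (0.08 ± 0.12) and Ascl2 (0.14 ± 0.10) were not called in their brightest probe set, although 1 of 3 probe sets of each was higher (0.31 for Tfap2a, limma adjusted p 0.0136, and 0.39 for Ascl2, limma adjusted p 0.0381).

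Formative and primed epiblast genes, which mark cells on their way out of the naive state, were mostly lower as well. Of 19 tested members 12 fell and 2 rose, with a median of -0.52. Pou3f1 (Oct6), a POU factor of the epiblast and neural lineage, read 67.7, 79.2 and 83.5 on knockout arrays and 881, 589 and 285 on wild-type arrays. It fell 6.92-fold, while the Sox factors Sox11 and Sox4 fell 3.36-fold and 2.84-fold and the kinase Pim2 3.27-fold. Sox11 was lower in all of its 6 probe sets. The de novo methyltransferase Dnmt3b fell 1.73-fold, with 3572, 3370.4 and 3550.4 on knockout arrays against 6741, 6224 and 5249.5 on wild-type arrays. Otx2, the homeobox factor of the formative state, differed by -0.08 ± 0.33 and overlapped between the genotypes. The members that rose were the beta-catenin binding protein Dact1 (0.44 ± 0.11) and Zic5 (0.54, named after its values were seen).

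Among naive pluripotency genes more members rose than fell in knockout cells, by small amounts. Of 23 tested members 10 rose (43.5%, against 13.2% of all genes), 2 fell and 11 were not called, with a median of 0.20, and 1 of the rises was at least 2-fold. In control medium 20 of the 23 rose (19.9% of all genes did) and 2 fell, with a median of 1.09. The largest rise with Wnt3a was that of Manba, a lysosomal mannosidase in the list of naive markers, which had 4684, 5233 and 5221 on knockout arrays and 1483, 1952 and 2514 on wild-type arrays. Tbx3, a T-box factor that holds the naive state, had 1768, 2092 and 2187 on knockout arrays and 785, 1160.3 and 1368 on wild-type arrays with Wnt3a. These groups do not overlap and Tbx3 rose by 0.90 ± 0.17. Without Wnt3a the same gene read 2069, 1792 and 1652 on knockout and 308, 304 and 333 on wild-type arrays, a change of 2.54 ± 0.17. The knockout arrays lay at a like height in both media, while the wild-type arrays with ligand all lay above those without. The spiked transcript dap also differed, at 11.3 to 11.6 (log2) on Wnt3a arrays and 3.85 to 4.07 on control arrays. Heights across media can therefore not be told apart from a difference between the sets of arrays. The difference of the knockout effect between media was -1.64 ± 0.24 (limma adjusted p 0.0065).

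The same arrangement was seen for the orphan receptor Esrrb, which had 4454, 4498 and 4571 on knockout and 2684, 3254 and 3763 on wild-type arrays with Wnt3a, against 4339, 4103 and 4141 on knockout and 1238, 1476 and 1184 on wild-type arrays in control medium. Its knockout effect was 0.49 ± 0.11 with ligand and 1.70 ± 0.11 without (difference -1.20 ± 0.16, limma adjusted p 0.00454). Tfcp2l1, a transcription factor downstream of Lif and Wnt, had 4540.1, 5102 and 4749 on knockout and 2856, 3538 and 4098 on wild-type arrays with Wnt3a, and changed by 0.47 ± 0.11 with and 2.07 ± 0.11 without ligand. The adhesion molecule Jam2, higher in all 5 probe sets, changed by 0.75 ± 0.12 and 1.84 ± 0.12. For Prdm14, a chromatin regulator that suppresses Fgf signalling, no change was called with Wnt3a (0.12 ± 0.17), with 459.8, 525 and 522 on knockout arrays and 357, 475 and 574 on wild-type arrays, against 1.74 ± 0.17 in control medium (difference -1.61 ± 0.25, limma adjusted p 0.00811). Klf4 (0.14 ± 0.10 with and 1.29 ± 0.10 without ligand), Klf2 (0.17 ± 0.07 and 1.09 ± 0.07) and Nr5a2 (-0.16 ± 0.11 and 0.83 ± 0.11) were likewise not called with Wnt3a, and each differed between media. In all, 16 of the 23 naive genes had a more negative knockout effect with Wnt3a (1.88% of all genes did), and 10 did without knockout control array 1 or without wild-type Wnt3a array 2.

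**Figure D3:**
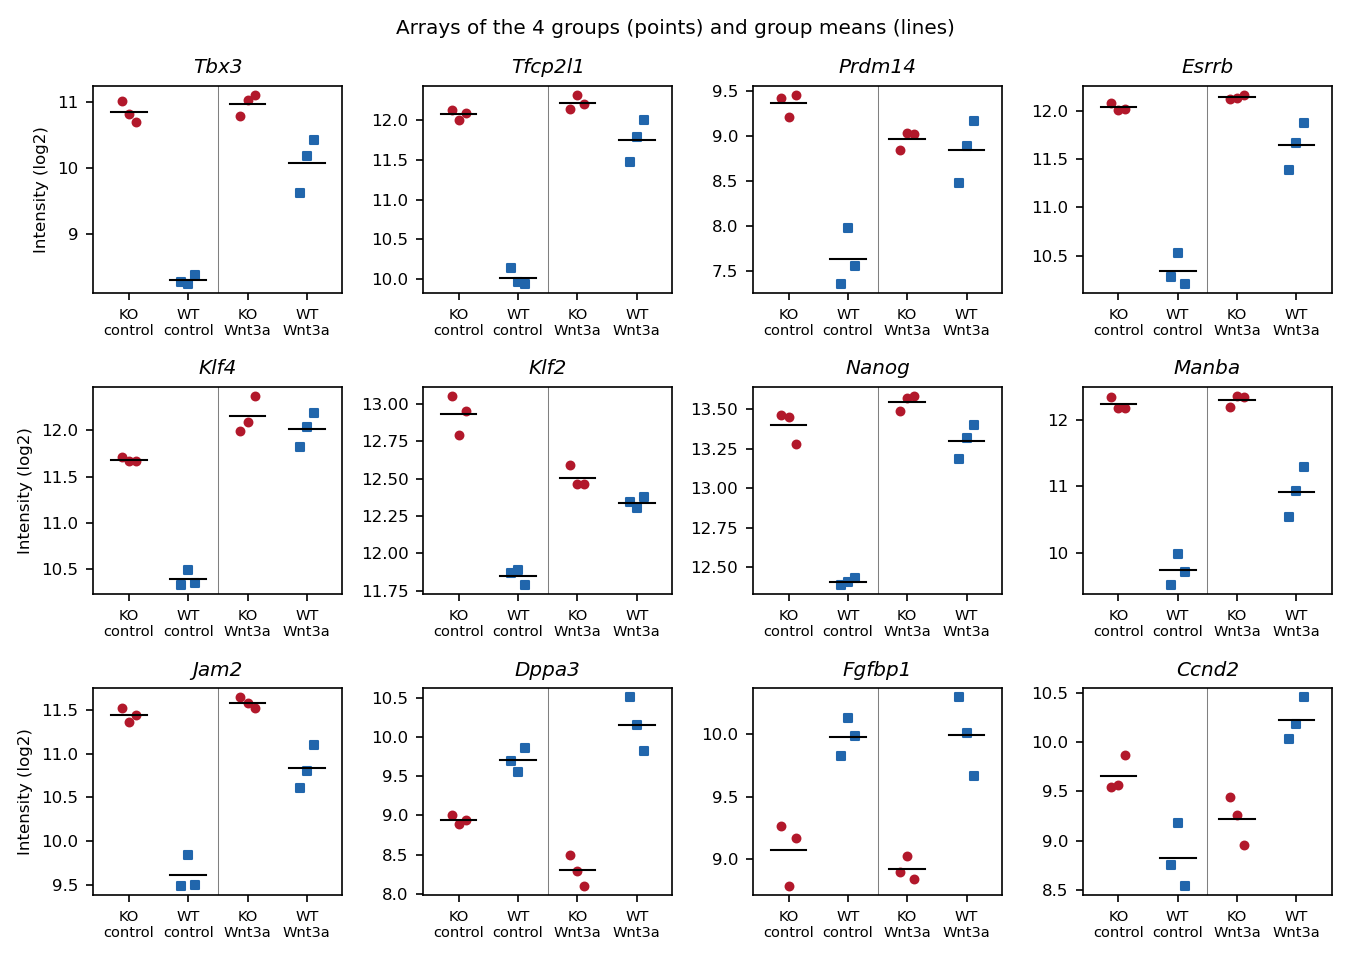
Log2 intensity of 12 genes in knockout and wild-type cells in control medium (left pair) and with Wnt3a (right pair), 3 arrays per group as points and the mean as a line. Tbx3, Tfcp2l1, Prdm14, Esrrb, Klf4 and Klf2 are lowest in wild-type cells without Wnt3a and lie closer together between the genotypes with it, Dppa3 and Fgfbp1 are lower in knockout cells in both media, and for Ccnd2 the order of the genotypes turns round. Spiked controls differed between the media too, so heights across media cannot be told apart from a difference between the sets of arrays.

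2 members of the naive list went the other way. Dppa3 (Stella), a maternal factor that protects DNA methylation and a marker of the naive state and of germ cells, read 361, 313 and 275 on knockout arrays and 1454, 1138 and 905 on wild-type arrays, a 3.64-fold fall. Fgfbp1, which releases Fgf from the matrix, fell 2.10-fold, with 476, 520.1 and 459 on knockout and 1258, 1032 and 812 on wild-type arrays. Both were also lower in knockout cells without ligand (-0.76 ± 0.15 and -0.91 ± 0.16).

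The core pluripotency factors moved little. Pou5f1 (Oct4) had 11329.8, 11571 and 12601 on knockout arrays and 9443, 9809 and 10188 on wild-type arrays, a difference of 0.27 ± 0.08. That call was lost (limma adjusted p 0.0543 to 0.0707 without knockout Wnt3a array 3 or wild-type Wnt3a array 1 or 2). Nanog differed by 0.25 ± 0.07 with Wnt3a, a call lost as well (limma adjusted p 0.0562 to 0.0962 without knockout Wnt3a array 2 or 3 or wild-type Wnt3a array 1 or 2), and by 0.99 ± 0.07 in control medium. Sox2 (0.05 ± 0.08) was not called. In the general pluripotency list Fgf4, the autocrine Fgf of stem cells, rose 1.70-fold, with all 3 probe sets higher and 2518, 2804 and 2775 on knockout arrays against 1375, 1559.8 and 1854 on wild-type arrays. Lin28a, which blocks let-7 maturation, fell by 0.32 ± 0.05 and Zfp281 by 0.29 ± 0.07 on the log2 scale. Of 19 tested members 4 were higher (1 without knockout Wnt3a array 3 or wild-type Wnt3a array 1 or 2) and 4 lower (2 without knockout Wnt3a array 2 or wild-type Wnt3a array 1).

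Among known targets of Wnt signalling 9 of 23 tested genes fell and 0 rose by limma (0 at an unadjusted p below 0.05), with a median of -0.20. Axin2, the feedback scaffold used most often as a readout, had 559.8, 628 and 573 on knockout arrays and 653, 653 and 720.4 on wild-type arrays and was not called (-0.20 ± 0.15). Sp5, a zinc-finger factor that responds early to Wnt, had 1031, 971 and 952 on knockout arrays and 1754, 1526 and 1299 on wild-type arrays, and its difference of -0.62 ± 0.26 did not pass either. For Axin2 and Sp5 the knockout arrays lay wholly below the wild-type arrays with Wnt3a, as they did for 22.3% of all genes. Lef1 (-0.03 ± 0.15), Cdx1 (0.43 ± 0.24) and Dkk1 (-0.16 ± 0.25) overlapped between the genotypes. Jun, an AP-1 factor, fell 4.05-fold, the matricellular Ccn4 (Wisp1) 2.98-fold, cyclin D1 (Ccnd1) 1.63-fold in all 3 probe sets, and Myc 1.50-fold. Myc read 1115, 1132 and 956 on knockout and 1487, 1575 and 1728 on wild-type arrays, without overlap. Jun, Myc and cyclin D1 are known to answer many other growth signals as well.

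Tcf/Lef proteins bind a core that was searched here as CTTTG followed by AA, AT, TA or TT on both strands. The core was present in 7 of 18 promoter windows of the tested Wnt targets (38.9%), from 6 of 13 genes, in 16.9% of all windows and in 11.9% of those of tested genes. These genes were listed as known Wnt targets, so their share describes the list and not the knockout effect. The window of Sp5, shown because Sp5 is a direct Wnt target whose measured change is given above, lies on the plus strand of GRCm38.p6 and holds 2 cores, shown in capitals, 1 of them on the opposite strand.
Sp5, chr2:70474673-70474972, plus strand: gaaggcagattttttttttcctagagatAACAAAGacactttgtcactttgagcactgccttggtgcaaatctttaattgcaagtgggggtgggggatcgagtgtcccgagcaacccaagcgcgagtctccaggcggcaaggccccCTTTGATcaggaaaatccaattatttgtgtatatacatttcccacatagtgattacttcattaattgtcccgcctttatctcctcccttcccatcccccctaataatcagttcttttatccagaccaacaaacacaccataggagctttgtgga
A match is a description of these letters and not a site.

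Among components of the pathway the largest change was in Wnt secretion. Wls (Wntless), the carrier that brings Wnt proteins to the cell surface, had 54.9, 43.1 and 28.2 on knockout arrays and 359, 369.6 and 435 on wild-type arrays. All 3 of its probe sets were lower, and it was at least 8.19-fold lower in knockout cells. Wnt4 fell 2.75-fold and Wnt5b rose by 0.51 ± 0.10. Of 13 tested ligand and secretion genes 4 were lower and 1 higher; the number lower was 2 without knockout Wnt3a array 2 or wild-type Wnt3a array 1 or 2, and the number higher was 0 with the stricter filter. Among 18 receptors and coreceptors 6 were lower (2 with probe sets averaged per gene) and 2 higher (1 without wild-type Wnt3a array 1 and with probe sets averaged per gene). Fzd2 had 249.9, 159 and 159 on knockout arrays and 845, 637 and 466 on wild-type arrays and fell 3.41-fold, in all 3 probe sets. The tyrosine-kinase receptor Ror1 fell at least 1.54-fold and Fzd4 rose by 0.39 ± 0.08.

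Of 17 transducers and nuclear factors 6 fell, the targeted gene included, and 0 rose by limma (0 at an unadjusted p below 0.05). Beta-catenin itself (Ctnnb1) read 14726, 14961 and 15379 on knockout arrays and 14595, 14939 and 14438 on wild-type arrays and was not called (0.04 ± 0.05, limma adjusted p 0.65). Tcf7l2, a Tcf/Lef factor that often activates, had 28.3, 50.1 and 67.7 on knockout arrays and 94.9, 84.1 and 103 on wild-type arrays. It was at least 1.98-fold lower, although only 1 of its 3 tested probe sets passed. The corepressors Tle1 and Ctbp2 fell by 0.29 ± 0.07 and 0.33 ± 0.06 on the log2 scale. Tcf7 was not analysed here. Of 21 inhibitors and destruction complex genes 5 were higher (23.8%, against 13.2% of all genes) and 3 lower (14.3%, against 14.7%). Sfrp2, a secreted Wnt-binding protein, fell 2.30-fold, to 201, 183 and 208 on knockout arrays against 583, 441 and 359 on wild-type arrays. Its relative Sfrp4 rose by 0.60 ± 0.08, Dact2 by 0.60 ± 0.12 and the ubiquitin ligase subunit Btrc by 0.35 ± 0.08.

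**Figure D4:**
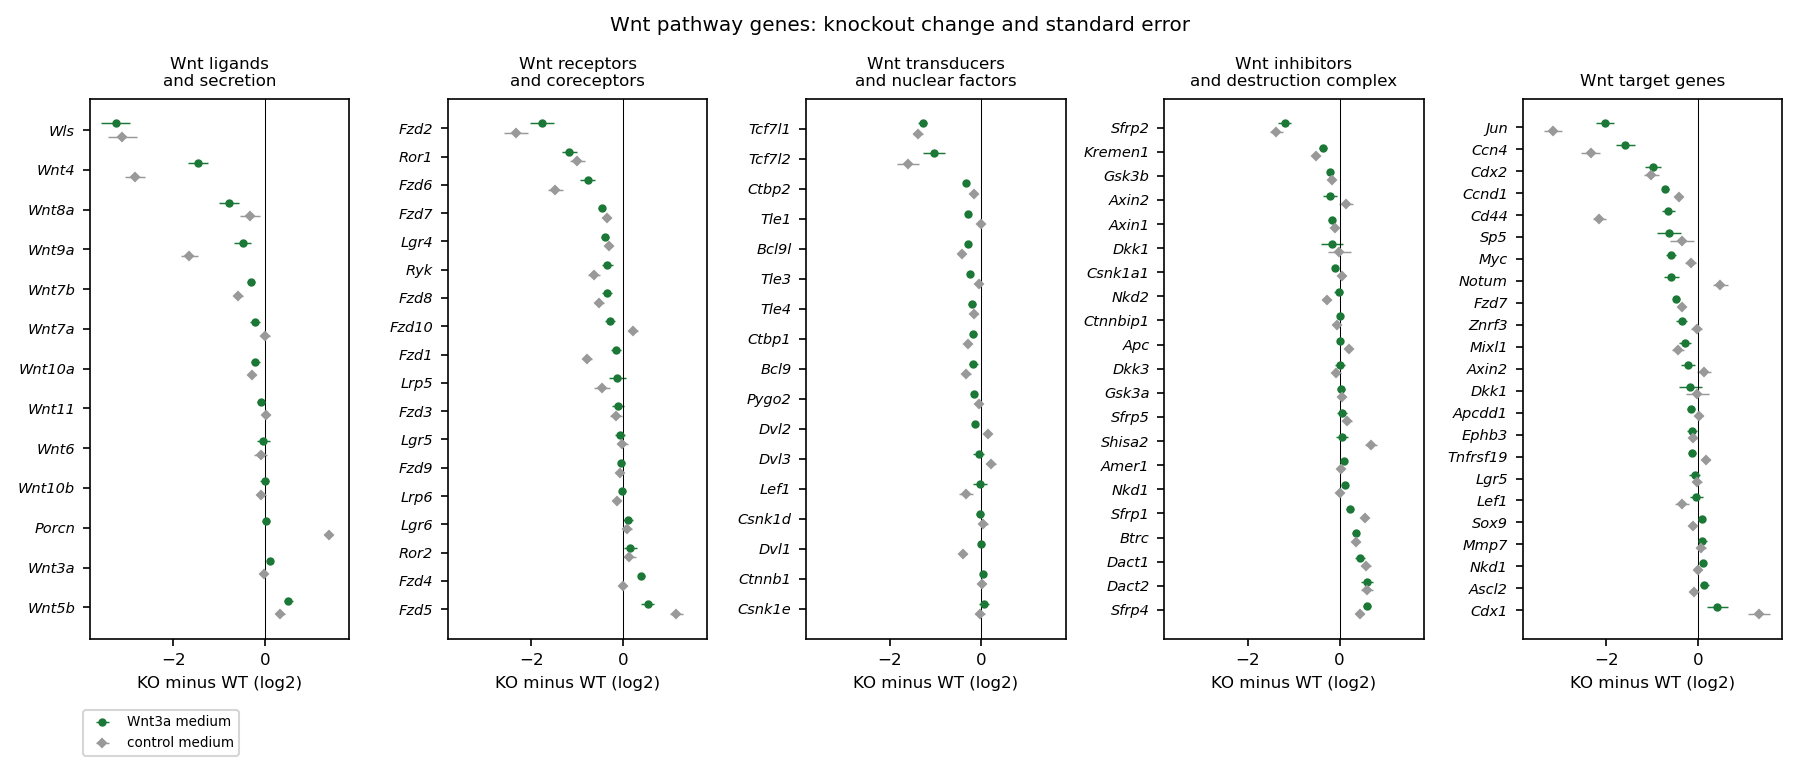
Knockout minus wild type on the log2 scale (± SE) for all tested members of the Wnt pathway lists by role, in Wnt3a medium and in control medium. Wls (measured change -3.25), Fzd2 (-1.77) and Jun (-2.02) lie furthest below 0 in their panels in Wnt3a medium, Ctnnb1 lies at 0.04, and Cd44 and Wnt4 are nearer to 0 with Wnt3a than without.

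Other signalling lists were mixed. Of 23 BMP and Id genes 7 fell and 0 rose by limma (1 at an unadjusted p below 0.05; 1 without knockout Wnt3a array 1 and after repeated quantile normalization and with an intensity trend). Id1, a direct BMP target, fell 1.57-fold with 2563, 2522 and 2421 on knockout arrays against 4463, 3969 and 3406 on wild-type arrays, Bmp1 fell 2.44-fold and Bmp2 at least 1.71-fold, and the signal transducer Smad1 fell by 0.42 ± 0.10 in all 3 probe sets. Among 23 FGF and ERK genes 11 fell and 4 rose, with a median of -0.42. The dual-specificity phosphatases Dusp4, Dusp5 and Dusp6, feedback inhibitors that rise with ERK activity, fell 3.04-fold, 2.62-fold and 1.98-fold. Egr1, an immediate early target of ERK, went the other way and rose 1.96-fold, with 1633, 1949 and 2274 on knockout arrays and 1096, 1032 and 848 on wild-type arrays. In the Lif and Stat3 list Junb and the kinase Pim1 fell by 0.88 ± 0.16 and 0.75 ± 0.09, and the feedback inhibitor Socs3 rose by 0.40 ± 0.08 in all 3 probe sets. In that list 2 of 14 members were higher (1 without wild-type Wnt3a array 1) and 3 lower. Among 18 genes of Nodal and Activin signalling 4 were higher (2 without knockout Wnt3a array 2 or 3 or wild-type Wnt3a array 2, 1 without wild-type Wnt3a array 1) and 4 lower. Lefty1, an inhibitor of Nodal, had 471, 663 and 896 on knockout and 3387, 2452 and 1869.8 on wild-type arrays and fell 3.81-fold. Follistatin (Fst), which binds Activin, fell 1.88-fold, Nodal itself rose by 0.27 ± 0.07, and Lefty2 (-0.69 ± 0.40) overlapped.

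Imprinted genes held large changes in both directions, 9 of 25 lower and 6 higher. Igf2, the paternally expressed growth factor, had 143, 181 and 135 on knockout arrays and 1147, 1208 and 1359 on wild-type arrays, an 8.14-fold fall without overlap. The growth inhibitors Cdkn1c and Phlda2, both maternally expressed, fell 5.26-fold and 2.59-fold, Peg3 2.48-fold and Gnas 2.38-fold. The maternally expressed noncoding RNAs of the Dlk1-Dio3 region rose together: Meg3 2.14-fold, with 10 of 11 probe sets higher, Rian 2.20-fold with 4 of 4 and Mirg 2.84-fold with 2 of 2. Meg3 read 7024, 7212 and 8454 on knockout and 3421, 3568 and 3601 on wild-type arrays. Dlk1, the paternally expressed gene of that region, differed by -0.16 ± 0.16 and was not called. All 8 of these members that changed were called in the same direction in control medium, where Igf2 changed by -2.82 ± 0.20 and Meg3 by 0.67 ± 0.07.

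Interferon-inducible genes were split, with 9 of 24 lower and 6 higher. The guanylate-binding proteins Gbp2b, at 29.0, 31.2 and 32.7 on knockout arrays and 1567, 925 and 483 on wild-type arrays, and Gbp2 were at least 18.8-fold and at least 12.5-fold lower. Irgm1, another GTPase of cell-autonomous immunity, fell 3.52-fold. Beta-2 microglobulin (B2m), the light chain of class I molecules, fell 2.20-fold and the immunoproteasome subunit Psmb8 2.06-fold. The class I heavy chain H2-K1 fell 1.98-fold in its brightest probe set, with 2 of its 4 probe sets lower and the other two not called. For H2-D1, another class I heavy chain, the 6 probe sets had limma adjusted p-values of 0.0586 to 0.746, and such near-identical genes can share signal. B2m read 579.7, 599 and 597 on knockout arrays and 1559, 1245 and 1145 on wild-type arrays. Xaf1, an interferon-inducible gene linked to apoptosis, rose in both probe sets, by 2.44 ± 0.42 on the log2 scale.

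Rises included genes of the germ line and genes named for blood cells. In the germ cell and 2-cell list 4 of the members that rose did so at least 2-fold. Dazl, an RNA-binding protein of germ cells, read 862, 882 and 1015 on knockout arrays and 212, 223 and 304 on wild-type arrays, a 3.77-fold rise. The oocyte gene Nlrp4f rose 3.88-fold and the meiotic gene Hormad1 2.47-fold, beside Magea4 above. In the same list 5 of 15 tested members were higher and 3 lower, and the number lower was 1 without knockout Wnt3a array 2 or 3, knockout control array 1, 2 or 3, wild-type control array 3 and after repeated quantile normalization and with the 6 Wnt3a arrays fitted alone, 0 without wild-type Wnt3a array 1. Of 18 genes of blood and endothelium 4 rose and 0 fell by limma (1 at an unadjusted p below 0.05; 1 without wild-type Wnt3a array 3 and with no filter). Besides Slc11a1 these were Rcsd1 (3.39-fold, in 1 of 3 probe sets), the endothelial receptor Tek (0.72 ± 0.16) and endoglin (Eng, 0.61 ± 0.13). Ptprc, which defines blood cells, was below the floor on all 6 arrays, and the 4 blood markers, mostly Laptm5, summed to 1568 to 2555 on knockout and 903 to 2066 on wild-type arrays.

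Of 15 genes that act on DNA methylation 3 were higher and 2 lower, counts near the 13.2% and 14.7% of all genes. The number lower was 1 without knockout Wnt3a array 1 or 2 or wild-type Wnt3a array 1 or 2 and with the 6 Wnt3a arrays fitted alone. Dnmt3l, the cofactor of the de novo enzymes, had 11197, 11658 and 11613 on knockout arrays and 6956, 6725 and 6690.4 on wild-type arrays and rose 1.69-fold, whereas Dnmt3b fell. The dioxygenase Tet2 rose 1.62-fold in both probe sets and the deaminase Apobec1 1.73-fold, while Tet1 (0.22 ± 0.10), Dnmt1 (-0.19 ± 0.08) and Dnmt3a (0.07 ± 0.17) were not called, although 1 of the 5 probe sets of Dnmt3a was higher (0.46, limma adjusted p 0.0196). Of the 7 tested genes in the list of Y-linked genes and Xist 3 were higher and 0 lower by limma (0 at an unadjusted p below 0.05). Uba1y read 622, 697 and 685 on knockout arrays and 109.8, 136 and 153 on wild-type arrays and Uty rose by 0.45 ± 0.10, while Usp9y (-0.04 ± 0.11) and Eif2s3y (0.06 ± 0.07) were not called.

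In the cell cycle list 7 of 34 genes fell and 2 rose (1 without wild-type Wnt3a array 2). The inhibitor Cdkn2b (p15), a target of TGF-beta signalling, fell 3.47-fold, with 65.2, 91.5 and 101 on knockout arrays and 204, 343 and 359 on wild-type arrays. Cyclin D2 (Ccnd2) fell 2.00-fold and cyclin D1 as given above, whereas cyclin D3 (Ccnd3) rose by 0.37 ± 0.06. Cdk6, the kinase partner of the D cyclins, fell by 0.58 ± 0.08. The p53 targets Btg2 and Pmaip1 fell by 0.53 ± 0.11 and 0.46 ± 0.10, and 7 of 16 targets in all were lower (4 without knockout Wnt3a array 1 or wild-type Wnt3a array 1, 2 or 3 and with the 6 Wnt3a arrays fitted alone, 3 without knockout Wnt3a array 2), while Cdkn1a (p21) differed by -0.28 ± 0.15 and was not called.

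Metabolic lists moved by small amounts. Of 23 glycolysis and hypoxia genes 8 were higher and 1 lower, and the number higher was 4 without knockout Wnt3a array 3 or wild-type Wnt3a array 2 and with the 6 Wnt3a arrays fitted alone, 3 without knockout Wnt3a array 2, 5 without wild-type Wnt3a array 1. Pfkp, a phosphofructokinase isoform, stood out with 4531, 5195 and 5333 on knockout arrays and 1719, 2026 and 2329 on wild-type arrays and rose 2.49-fold in all 3 probe sets, and the mitophagy gene Bnip3 rose 1.71-fold. The glucose transporter Slc2a1 fell by 0.32 ± 0.08. Of 24 glutathione and xenobiotic genes 7 fell and 4 rose. Gsta3, a glutathione transferase that also acts in steroid synthesis, rose 3.01-fold with Wnt3a, with 1075, 919.5 and 720.3 on knockout arrays and 214, 289 and 423 on wild-type arrays, and Gsto1 fell 2.46-fold. Respiratory chain genes had a median of 0.09 over 43 members, none with a change of 2-fold, and cytosolic ribosomal proteins one of 0.01 over 37. Of the respiratory chain genes 10 were higher (23.3%, against 13.2% of all genes) and 1 lower (2.33%, against 14.7%). The number higher ranged from 2 to 14 over the settings, and the number lower from 0 to 1. In the stress list Atf3, an early stress factor, fell 3.30-fold, while Xbp1, a factor of the unfolded protein response, rose by 0.44 ± 0.10. Genes of streak and mesoderm, endoderm and neural ectoderm had 1 of 12, 3 of 16 and 3 of 15 tested members called in either direction, against 28.0% of all genes. For streak and mesoderm the number higher was 2 with no filter, 0 without knockout Wnt3a array 2 or wild-type Wnt3a array 1 or 2 and with the 6 Wnt3a arrays fitted alone, and the number lower was 1 without wild-type Wnt3a array 1 or knockout control array 2 and with no filter and with the stricter filter and with the replicate block, 2 without wild-type Wnt3a array 3. For neural ectoderm the number lower was 1 without knockout Wnt3a array 2 or 3, wild-type Wnt3a array 1 or 2, knockout control array 1, 2 or 3, wild-type control array 1 or 3 and with probe sets averaged per gene and with the 6 Wnt3a arrays fitted alone. In the endoderm list the number higher was 2 with all arrays (9 with the 6 Wnt3a arrays fitted alone, 4 without knockout control array 1, 6 without knockout control array 2), and the number lower was 1 with all arrays and 2 with the 6 Wnt3a arrays fitted alone.

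The knockout effects in the 2 media, which share no array, were largely alike in direction. In control medium 42.2% of genes were called, and of the 3863 genes called with Wnt3a 2942 were called in the same direction there (76.2% of the calls with Wnt3a and 50.5% of those without), 25 in the opposite direction and 896 only with Wnt3a. Whether such a gene differs between media is a separate test. Of the 300 genes at least 2-fold lower with Wnt3a, 297 were also lower without it, and of the 123 at least 2-fold higher, 122 were also higher. Exceptions were the neuronal filament gene Ina (-1.88 with and -0.60 without ligand, the second not called), Pax6 and Ccnd2 among falls, and the immune receptor gene Btla (1.27 and 0.12) among rises. The Pax6 call was lost (limma adjusted p 0.0517 to 0.134 without knockout Wnt3a array 2 or 3, wild-type Wnt3a array 1, 2 or 3, knockout control array 1, 2 or 3, wild-type control array 1 or 3), and 1 of its 4 probe sets was called. Of these genes Ina and Btla were named after their values were seen. Across genes the changes correlated with a Pearson r of 0.87 and a Spearman rho of 0.73, given as a description because genes are not independent replicates.

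**Figure D5:**
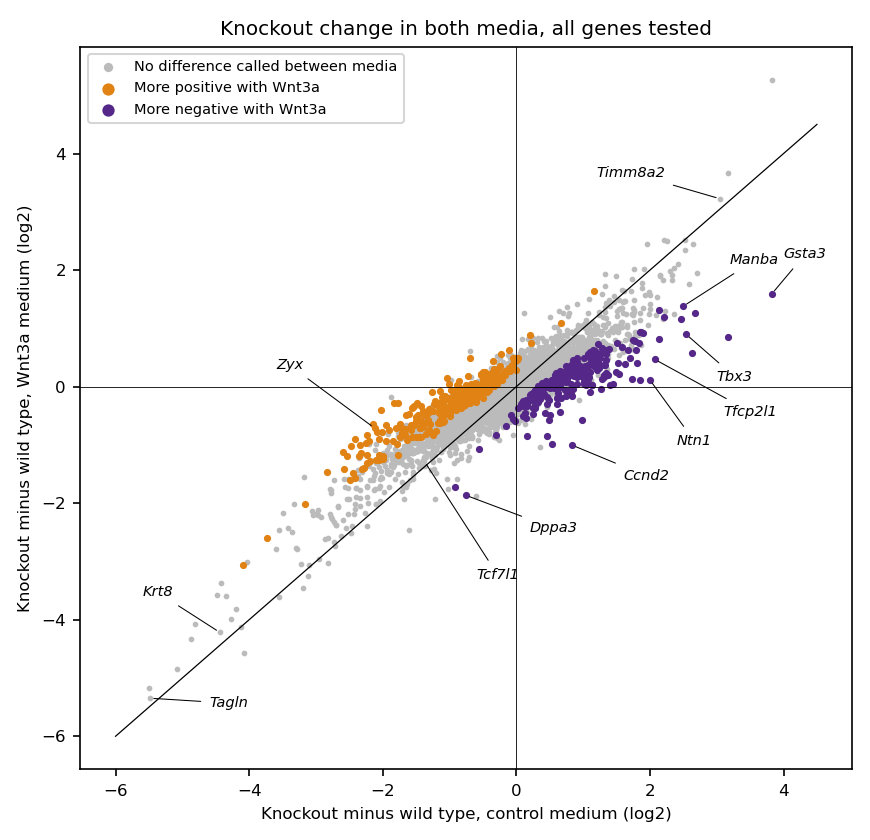
Knockout minus wild type on the log2 scale for the 13811 tested genes, in control medium (horizontal) and in Wnt3a medium (vertical), with the line of equal change. Genes whose effect was more positive with Wnt3a (304, orange) lie mostly left of 0 on the horizontal axis (297 of 304) and above the line of equal change, and those more negative (259, purple) mostly right of 0 (251 of 259) and below the line.

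The test of the difference itself called 563 genes (4.08%), 304 more positive with Wnt3a (2.20%) and 259 more negative (1.88%). These counts depend on single arrays, more so than those within a medium. The number more positive was 116 without knockout control array 1, 196 and 109 without knockout control arrays 2 and 3, 104 and 183 without knockout Wnt3a arrays 2 and 3, 116 and 67 without wild-type control arrays 1 and 3, and 568, 81 and 116 without wild-type Wnt3a arrays 1, 2 and 3. The number more negative was 94 and 106 without knockout control arrays 1 and 3, 105 without knockout Wnt3a array 2, 99, 483 and 84 without wild-type control arrays 1, 2 and 3, and 99 and 116 without wild-type Wnt3a arrays 2 and 3. Of the genes at least 2-fold lower and at least 2-fold higher with Wnt3a, 29 and 8 differed between the media. Most of the 563 had a smaller change with ligand, 279 of the 304 and 225 of the 259. The control-medium change enters the difference, so part of this arrangement is built into the choice of these genes. Arrays of the media also differed in preparation: dap read 11.3 to 11.6 (log2) on the 6 Wnt3a arrays and 3.85 to 4.07 on the 6 control arrays, and the part of this in the difference between media was not tested.

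Ccnd2 turned direction between the media. With Wnt3a it read 697, 613 and 496 on knockout arrays and 1044, 1165 and 1403 on wild-type arrays, and in control medium 747, 756 and 936 on knockout arrays and 432, 581 and 373 on wild-type arrays. The groups do not overlap in either medium. The change was -1.003 ± 0.17 with ligand, in all 6 probe sets, and 0.83 ± 0.17 without, with a difference of -1.84 ± 0.25 (limma adjusted p 0.00468). Oat, ornithine aminotransferase, turned the other way, with 0.43 ± 0.09 in Wnt3a medium and -0.36 ± 0.09 in control medium (limma adjusted p of the difference 0.0104). Kit, the receptor of stem cell factor, changed by 0.04 ± 0.10 with Wnt3a, not called, and by 1.45 ± 0.10 without (difference -1.41 ± 0.14, limma adjusted p 0.00106). Ntn1, a secreted guidance factor, changed by 0.12 ± 0.12 and 2.00 ± 0.12 (difference -1.88 ± 0.16, limma adjusted p 0.00106). On the other side Cd44, the hyaluronan receptor, was at least 1.34-fold lower in knockout cells with Wnt3a, with 47.3, 33.5 and 41.7 on knockout and 61.8, 64.6 and 62.6 on wild-type arrays. Without ligand it read 24.1, 31.4 and 35.7 on knockout and 147, 121 and 133 on wild-type arrays, and the measured difference was 1.51 ± 0.21 (limma adjusted p 0.00502). The knockout means lie below the floor in both media, and with these set to the floor the difference is 1.08. For these genes the knockout effect was nearer to 0 with Wnt3a, apart from Ccnd2 and Oat, where it changed sign.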

How the data were processed

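RNA of mouse embryonic stem cells was hybridised to Affymetrix arrays of a single design, 1 array per sample. The authors deposited linear intensity values made with RMA, per the submitters' processing notes; its further settings were not given in the sources used here, and since the deposited values were not logged, log2 was taken with no pseudocount. Of 45101 probe sets 34945 carried 1 gene symbol, 932 several and 9160 none in the annotation supplied, and 64 were controls. Each gene was represented by its probe set with the highest mean and kept if at least 3 of 12 arrays lay above the 40th percentile (log2 5.56). Group means were fitted with limma 3.58.1 (R 4.3.3, lmFit and eBayes) over all 12 arrays, with Benjamini-Hochberg adjustment over 13811 genes and a threshold of 0.05. The fit was checked on simulated data. RefSeq tables of assembly GRCm38.p6 gave chromosomes and promoter windows and held 18032 of 18194 Entrez identifiers. Named genes were the 12 largest rises and falls without overlap, up to 8 called and 4 other members per list, the 10 largest differences between media each way, the 10 largest changes called in opposite directions, the neighbours of Tcf7l1 and a fixed set, with RIKEN and predicted names passed over; part is printed. Members and lists were chosen with earlier results of these data known. Depth has no count on arrays, so precision is limited by having 3 arrays in each group.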

Additional observations from a re-analysis of the deposited data

Results flagged for a closer look

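The knockout effect differed between media by limma's test of the difference for 304 genes that were more positive with Wnt3a and 259 that were more negative. The differences below are log2 values, the knockout effect in Wnt3a medium minus that in control medium, and no explanation was weighed for them. More negative with Wnt3a and called in every leave-one-out fit were Gsta3 (-2.23), Ntn1 (-1.88), Ccnd2 (-1.84), Rsph4a, a radial spoke protein of cilia (-1.73), Tbx3 (-1.64), Prdm14 (-1.61), Tfcp2l1 (-1.60), Kit (-1.41), Esrrb (-1.20) and Jam2 (-1.09). More positive with Wnt3a and called in every leave-one-out fit were the sialyltransferase gene St6gal2 (1.63), the cadherin gene Cdh10 (1.56), Cd44 (1.51), Mfap3l (1.45), Zyx (1.41), Oat (0.79) and Gstk1 (0.64), and also Atp6v0b (0.60) and, in the other direction, Taf4 (-0.50), for which the call was lost with the mean of all probe sets (limma adjusted p 0.0725 and 0.0569).

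For other differences the call was lost when any 1 of the arrays named here was left out. Among those more negative with Wnt3a were Myo1f (-2.04, limma adjusted p 0.0506 to 0.0591 without wild-type Wnt3a array 2, knockout control array 1 or 3, wild-type control array 1 or 3), Ccser1 (-1.56, limma adjusted p 0.0524 to 0.097 without knockout Wnt3a array 2, wild-type Wnt3a array 2 or 3, knockout control array 1 or 3, wild-type control array 1, 2 or 3), Notum (-1.07, limma adjusted p 0.0578 to 0.0772 without knockout Wnt3a array 2 or 3, wild-type Wnt3a array 2 or 3, knockout control array 1 or 3, wild-type control array 1 or 3), Abca1 (-0.98, limma adjusted p 0.0642 to 0.0893 without knockout Wnt3a array 2, wild-type Wnt3a array 2 or 3, knockout control array 1 or 3, wild-type control array 1 or 3) and Jag1 (-0.62, limma adjusted p 0.0502 to 0.0561 without knockout Wnt3a array 2, knockout control array 3, wild-type control array 1 or 3). In the naive list they were Dppa3 (-1.11, limma adjusted p 0.0507 to 0.0516 without wild-type Wnt3a array 2 or knockout control array 1), Manba (-1.12, limma adjusted p 0.0523 to 0.0671 without knockout Wnt3a array 2, wild-type Wnt3a array 2, knockout control array 1 or 3, wild-type control array 1 or 3) and Tcl1 (-0.93, limma adjusted p 0.0502 to 0.0671 without knockout Wnt3a array 2, wild-type Wnt3a array 2 or 3, knockout control array 1 or 2, wild-type control array 1 or 3). Among those more positive were Cysltr1 (1.53, limma adjusted p 0.0515 to 0.0721 without knockout Wnt3a array 2 or 3, wild-type Wnt3a array 2, knockout control array 1 or 3, wild-type control array 1 or 3), Bach2 (1.49, limma adjusted p 0.0542 to 0.107 without knockout Wnt3a array 2 or 3, wild-type Wnt3a array 1, 2 or 3, knockout control array 1, 2 or 3, wild-type control array 1 or 3), Marveld3 (1.48, limma adjusted p 0.0511 to 0.0597 without wild-type Wnt3a array 2, knockout control array 1 or 3, wild-type control array 1 or 3) and Tgm2 (1.42, limma adjusted p 0.0671 to 0.12 without knockout Wnt3a array 2 or 3, wild-type Wnt3a array 2 or 3, knockout control array 1, 2 or 3, wild-type control array 1 or 3). The rest of that side were Wnt4 (1.38, limma adjusted p 0.0571 to 0.0885 without knockout Wnt3a array 2 or 3, wild-type Wnt3a array 2 or 3, knockout control array 1 or 3, wild-type control array 1 or 3), Cited4 (1.19, limma adjusted p 0.0502 to 0.0522 without wild-type Wnt3a array 2 or wild-type control array 1) and Pus7l (0.58, limma adjusted p 0.0635 to 0.09 without knockout Wnt3a array 2 or 3, wild-type Wnt3a array 2 or 3, knockout control array 1, 2 or 3, wild-type control array 3). Called in opposite directions in the media were Ccnd2, Notum, Cited4, Abca1, Oat, Atp6v0b, Jag1, Taf4, Pus7l and Gstk1. For some of them the call in Wnt3a medium was itself lost when 1 array was left out, namely Notum (limma adjusted p 0.0682 to 0.0761 without knockout Wnt3a array 3 or wild-type Wnt3a array 3), Cited4 (limma adjusted p 0.051 to 0.137 without knockout Wnt3a array 2 or 3, wild-type Wnt3a array 1 or 2, wild-type control array 3), Abca1 (limma adjusted p 0.0529 to 0.125 without knockout Wnt3a array 2 or 3, wild-type Wnt3a array 1, 2 or 3, knockout control array 1, wild-type control array 3), Pus7l (limma adjusted p 0.0607 to 0.0814 without knockout Wnt3a array 1, 2 or 3 or wild-type Wnt3a array 2 or 3) and Gstk1 (limma adjusted p 0.0552 without wild-type Wnt3a array 1). With the 6 Wnt3a arrays fitted alone the Wnt3a call was also lost for Abca1 (limma adjusted p 0.0922), Cited4 (limma adjusted p 0.0653) and Gstk1 (limma adjusted p 0.0632). For 7 genes at least 1 group mean lay below the floor, and with such means set to the floor the difference is 0.30 for St6gal2, 1.08 for Cd44, 1.24 for Cdh10, 1.42 for Cysltr1, 1.80 for Marveld3, 1.83 for Mfap3l and -1.47 for Rsph4a.

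Among sequences outside the main measurement, the spiked transcript dap was 7.47 higher (log2) on knockout arrays with Wnt3a than on knockout arrays in control medium.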

How the results depend on the processing

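Results were recomputed with median centring, repeated quantile normalization, no filter, a stricter filter, the mean of all probe sets per gene, an intensity trend, the 6 Wnt3a arrays alone, the replicate block, and without each of the 12 arrays in turn. Counts of genes called in Wnt3a medium stayed within 1.5 times throughout (1264 to 1889 higher and 1462 to 2085 lower with 1 array left out). Counts for the difference between media moved more, with 67 to 568 more positive and 84 to 483 more negative when 1 array was left out, and the cause was not tested. The higher genes made up 47.3% of calls here and 56.7% after repeated quantile normalization. Same-numbered Wnt3a arrays of the genotypes deviated together by correlations of 0.11, -0.07 and 0.17, and those in control medium by -0.24, -0.25 and 0.09. Differently numbered arrays gave -0.18 to 0.11 with Wnt3a and -0.11 to 0.30 without. With 3 arrays per group these values cannot show whether the numbers mark shared cultures or days. The replicate block gave 1682 higher and 1940 lower genes. Of 412 genes named by the rule 258 were called, and 183 of these kept the call in all 20 settings. Of the 154 that were not called, 77 were called in the same direction in at least 1 setting. Cav2 was reversed: 0.07 and not called here, and -0.34 (limma adjusted p 0.00981) with the mean of all probe sets, 1 of its 2 probe sets being lower. Without detection calls, levels below the floor are bounds, and 3 arrays per group limit the precision. In simulated data with independent noise, 200 of 13811 genes were changed. Of those changed by 0.5 (log2) 64.2% were recovered in Wnt3a medium, and of those changed by 1 95.5%. In the real data 28.0% of genes were called, and the adjusted p depends on that share. The recovery rates therefore check the fit and do not give the precision of this comparison.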

Other observations

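The share of changed genes differed among chromosomes in Wnt3a medium. On chromosome 8, 46 of 736 tested genes were higher in knockout cells (6.25%) and 153 were lower (20.8%), with a median change of -0.06. On chromosome 1, 70 of 771 were higher (9.08%) and 182 lower (23.6%), with a median of -0.04. Chromosomes 7 and 6 had fewer lower than higher genes, with 112 lower and 166 higher of 1121 on chromosome 7 and 78 lower and 106 higher of 680 on chromosome 6, where Tcf7l1 lies. On the Y chromosome 3 of 8 tested genes were higher. In control medium 14.1% of the genes of chromosome 8 were higher in knockout cells and 27.2% lower. Genes of one chromosome are not independent replicates, so these shares are given without a test.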
